A study of Mus musculus with 24 samples.

Results

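Bmal1, listed under its gene symbol Arntl, is the partner of CLOCK in the transcription factor that drives the mammalian circadian clock. The comparison described here is Bmal1 loss in brain endothelial cells at ZT22 and ZT2, that is 22 and 2 hours after lights on (ZT, zeitgeber time), the end of the night and the start of the day. These time points were chosen as the phase in which Arntl is highest in controls, and the 8 libraries, of 24 in the series, were then taken by their labels: 4 from mutants (2 mice at ZT22 and 2 at ZT2) against 4 from controls at the same time points. All mice were C57BL/6J. Controls were Bmal1fl/fl, with both Bmal1 alleles floxed and no Cre, and mutants were Bmal1fl/fl; Tie2cre, which carry Cre under the promoter of the endothelial receptor gene Tie2 (Tek), so that Cre itself and the loss of Bmal1 cannot be told apart. This promoter is also known to be active in blood and immune cells, so that loss may not be limited to endothelium. Brains were dissociated, CD31+ cells were sorted by FACS, and each strand-specific RNA-seq library came from the cells of 1 mouse. Mice of both sexes were used, and the age of the sequenced mice is not given in the sources used here. The series also holds ZT6, ZT10, ZT14 and ZT18, with 2 mice per genotype at each.

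In the clock, BMAL1 with CLOCK or its paralogue NPAS2 binds E-box sequences and activates the Period (Per) and Cryptochrome (Cry) genes, whose proteins return to repress that activation. BMAL1 and CLOCK also activate the nuclear receptors REV-ERBα and REV-ERBβ (Nr1d1 and Nr1d2), which repress Arntl, Npas2 and Cry1, while the ROR receptors activate the same genes. Another arm runs through the PAR bZIP factors (Dbp, Tef and Hlf) and their opponent NFIL3, which act on D-box sequences. Endothelial cells of brain capillaries form the blood-brain barrier by tight junctions and efflux transporters, and they hold a clock of their own.

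Values below are normalised reads per library as deposited by the authors, who scaled the libraries to a like depth. The totals were 6266546 to 6404279 reads in the 4 controls and 6266123 to 6577585 in the 4 mutants. Differences are log2 (mutant minus control), with the standard error (SE) of the fit, and a gene passed when its edgeR quasi-likelihood p, adjusted by the Benjamini-Hochberg method over 15493 tested genes, was under 0.05. The typical spread between mice of a group (biological coefficient of variation) was 40.7%. With 4 against 4 libraries, a gene that did not pass is not thereby shown to be unchanged. Replicate 1 of each of the 4 groups carried female-specific RNA and replicate 2 carried male-specific RNA, so sex was balanced between genotypes in these 8 libraries. At ZT2 the controls and mutants carried different i5 indexes, and at ZT22 all 4 libraries shared an index. The difference at ZT2 and the index therefore cannot be told apart, and the value at ZT22 is the one within an index.

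The endothelial label was checked by 16 markers, whose summed reads were 113715 to 159844 in controls and 130242 to 151565 in mutants. The adhesion gene Pecam1, which encodes the sorted antigen CD31, had 7756 and 5289 reads in controls against 8060 and 7100 in mutants at ZT22, and 7804 and 8194 against 7122 and 7589 at ZT2. The junction gene Cdh5 had 5564 and 4740 reads in controls against 6554 and 5402 in mutants at ZT22, and 6531 and 6793 against 5277 and 6383 at ZT2. RNA of other brain cells was also present. Markers of microglia and macrophages summed to 13665 to 31923 reads in controls and 15431 to 36606 in mutants, those of astrocytes to 14433 to 21074 and 11913 to 15251, and those of oligodendrocytes to 10605 to 15223 and 8656 to 12773. The lymphocyte and neutrophil markers were at or near 0, with 0 to 16 reads in controls and 1 to 30 in mutants. One library stood apart: replicate 2 of the ZT22 controls had 68636 reads of choroid plexus and ependyma markers and 1798 of fibroblast markers, against at most 18653 and 794 in the other 7.

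The targeted gene, Arntl (ENSMUSG00000055116, GRCm38 chr7:113207465-113314126, plus strand), had 468 and 234 reads in the ZT22 controls, 242 and 205 in the ZT22 mutants, 439 and 466 in the ZT2 controls and 243 and 259 in the ZT2 mutants. At ZT2 both mutants lay below both controls, and at ZT22 the second control lay between the mutants. The log2 difference over both time points was -0.74 (SE 0.21). It is given as a description, since the level of Arntl in these controls chose the time points. The reads cover the whole gene, including the exons that Cre leaves in place, and RNA of other cells is in the libraries, so the count does not check the deletion itself. Among the 12 controls of the series, 3 of these 4 held the highest Arntl counts, and the other, with 234 reads, lay below the libraries labelled as ZT18 controls (267 and 261), of which the second is at odds with its label (below).

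Across the transcriptome, 2 of 15493 genes passed (0.0129%), 1 higher and 1 lower in the mutants. The extracellular matrix gene Npnt was 2.4-fold higher, and Fmo2, which encodes a flavin-containing monooxygenase, was lower in the mutants, with a log2 difference of -2.43. Unadjusted p was under 0.05 for 444 genes on the higher side (2.87%) and for 428 on the lower side (2.76%), and the counts on unadjusted p below are to be read against these shares. In the fit without replicate 2 of the ZT22 controls they were 513 (3.31%) and 412 (2.66%), and counts without that library are to be read against those.

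Npnt (ENSMUSG00000040998, chr3:132881745-132950291, minus strand) encodes nephronectin, a matrix protein that binds integrins. It had 204 and 148 reads in controls against 458 and 438 in mutants at ZT22, and 240 and 235 against 512 and 543 at ZT2. All 4 mutants lay above all 4 controls, as for 296 genes in all (1.91%, after TMM scaling of the libraries). The TMM-scaled mean was 206 ± 41.6 in controls and 490 ± 48.6 in mutants (SD, n = 4 each), and Npnt rose by 1.26 on the log2 scale (SE 0.17, 95% interval 0.89 to 1.63, edgeR adjusted p = 0.0307). It was 1.35 at ZT22 (SE 0.25), within an index, and 1.18 at ZT2 (SE 0.25).

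Fmo2 (ENSMUSG00000040170, chr1:162874317-162898726, minus strand) had 217 and 117 reads in controls against 37 and 43 in mutants at ZT22, and 159 and 268 against 23 and 37 at ZT2. Here all 4 mutants lay below all 4 controls, as for 272 genes in all (1.76%). The TMM-scaled mean was 190 ± 67.4 in controls and 35.1 ± 8.23 in mutants (SD, n = 4 each), a log2 difference of -2.43 (SE 0.35, 95% interval -3.17 to -1.69, edgeR adjusted p = 0.0307). The difference was -2.06 at ZT22 (SE 0.48) and -2.81 at ZT2 (SE 0.49). Both genes lost their call when any 1 of 7 libraries was left out, and kept it without replicate 2 of the ZT22 controls. With all 24 libraries in the fit both also lost it, with edgeR adjusted p-values of 0.687 for Npnt and 0.548 for Fmo2. That fit held the 2 libraries at odds with their labels, among others in their counts of these same genes (below). It was not run without them, and their part in the lost calls was not tested. Over all alternatives tried, the log2 difference was 1.09 to 1.34 for Npnt and −2.94 to −2.18 for Fmo2.

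**Figure D1:**
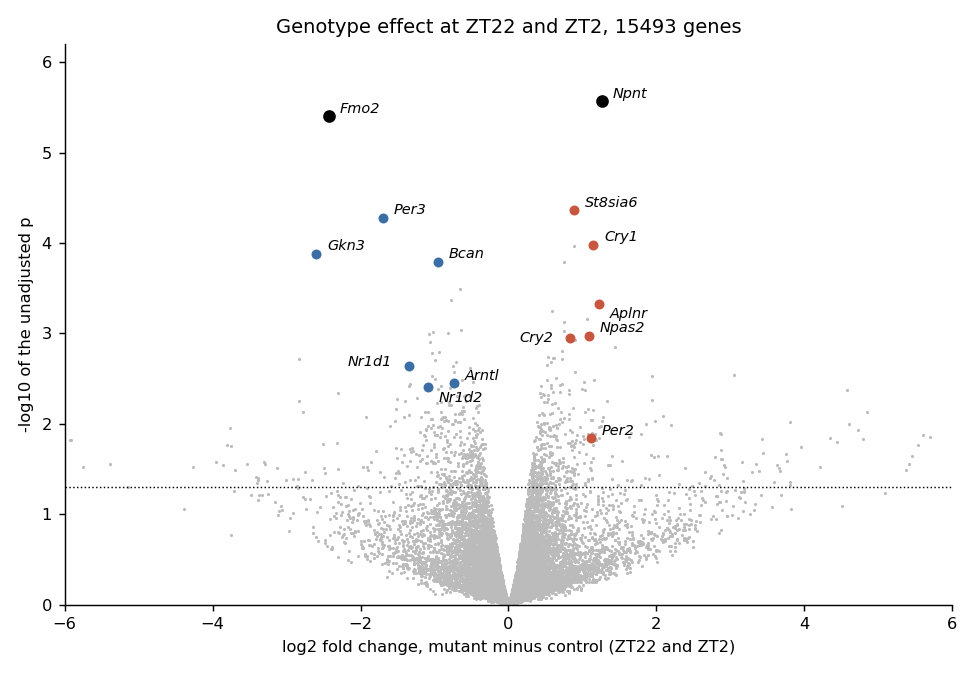
Log2 difference between mutants and controls over ZT22 and ZT2 (x axis) against −log10 of the unadjusted edgeR p (y axis) for the tested genes, 7 of which lie outside the x range, with a dotted line at the threshold of 0.05. Npnt on the right and Fmo2 on the left, in black, are the genes that passed the adjusted test, and the other named genes lie below them.

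E-boxes, D-boxes and ROR response elements are the sequences that the clock factors bind. For this reason the promoters (from 250 bases before to 50 bases after the start site, RefSeq, GRCm38.p6, gene strand) of both genes that passed are printed with those of 3 clock genes that hold a motif. Capitals mark a motif on either strand: the E-box CACGTG, the D-box TTANGTAA, in which N is any base, or the ROR response element. These 3 motifs do not overlap each other in the windows shown.
Npnt (chr3:132950242-132950541): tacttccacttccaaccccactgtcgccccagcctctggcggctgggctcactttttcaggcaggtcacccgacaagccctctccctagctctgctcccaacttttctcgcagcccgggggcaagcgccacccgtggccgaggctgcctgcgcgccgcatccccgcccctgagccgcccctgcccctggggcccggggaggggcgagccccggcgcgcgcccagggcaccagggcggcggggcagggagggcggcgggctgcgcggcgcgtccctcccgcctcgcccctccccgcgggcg
Fmo2 (chr1:162898709-162899008): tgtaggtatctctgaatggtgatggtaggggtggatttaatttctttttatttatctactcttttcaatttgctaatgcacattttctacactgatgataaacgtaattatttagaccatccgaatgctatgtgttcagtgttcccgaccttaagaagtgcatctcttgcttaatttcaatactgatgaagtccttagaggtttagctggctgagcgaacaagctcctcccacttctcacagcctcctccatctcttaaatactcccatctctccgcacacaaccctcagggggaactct
Cry1 (chr10:85185005-85185304): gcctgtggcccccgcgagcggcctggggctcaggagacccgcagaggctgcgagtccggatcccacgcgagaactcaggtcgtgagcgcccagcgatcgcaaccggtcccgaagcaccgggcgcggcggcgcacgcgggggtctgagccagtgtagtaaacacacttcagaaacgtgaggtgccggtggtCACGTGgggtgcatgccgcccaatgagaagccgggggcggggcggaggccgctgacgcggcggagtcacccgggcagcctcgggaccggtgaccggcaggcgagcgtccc
Ciart (chr3:95882179-95882478): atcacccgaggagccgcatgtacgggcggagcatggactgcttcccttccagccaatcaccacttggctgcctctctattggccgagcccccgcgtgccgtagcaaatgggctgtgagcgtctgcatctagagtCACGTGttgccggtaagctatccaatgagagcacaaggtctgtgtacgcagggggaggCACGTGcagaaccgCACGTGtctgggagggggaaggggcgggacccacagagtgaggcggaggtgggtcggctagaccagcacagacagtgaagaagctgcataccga
Per3 (chr4:151044616-151044915): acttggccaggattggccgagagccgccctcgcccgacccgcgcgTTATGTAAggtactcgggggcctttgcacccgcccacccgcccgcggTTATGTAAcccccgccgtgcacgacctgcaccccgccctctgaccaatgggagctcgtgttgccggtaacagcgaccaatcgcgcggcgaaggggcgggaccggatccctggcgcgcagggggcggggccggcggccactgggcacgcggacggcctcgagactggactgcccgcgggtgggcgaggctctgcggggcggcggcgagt

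The promoters of Npnt and Fmo2 held none of the motifs. Cry1 had an E-box whose first base lay 60 bases upstream of the start site, Ciart, which encodes a repressor of CLOCK and BMAL1, had 3 E-boxes at 116, 58 and 44 bases upstream, and Per3 had 2 D-boxes at 205 and 158 bases upstream. Of 20 genes looked up, 18 had a promoter in the table. An E-box was in 4 of them (also Per1 at 166 and Tef at 127 bases upstream), a D-box in 1, a ROR element in 0, and 13 held none of the motifs. Among all 32851 promoters in the table, 7.15% held the E-box, 2.32% the D-box and 0.773% the ROR element. A match describes letters in this window and no site of binding.

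Of the 3 genes of the positive arm, Arntl was on the lower side (above), and Clock and Npas2 on the higher. Clock (chr5:76209868-76304792, minus strand), the partner of BMAL1, had 1142 and 958 reads in controls against 1359 and 1274 in mutants at ZT22, and 938 and 1009 against 1157 and 1272 at ZT2. Every mutant lay above every control, with a log2 difference of 0.34 (SE 0.13, unadjusted p = 0.0211, adjusted p = 0.861). Npas2 (chr1:39193731-39363236, plus strand), the paralogue of Clock, had 99 and 138 reads in controls against 243 and 222 in mutants at ZT22, and 96 and 62 against 127 and 233 at ZT2. At each time point both mutants were above both controls, and over both times 1 mutant (127 reads) lay under the highest control (138). Its log2 difference was 1.09 (SE 0.27, unadjusted p = 0.00106, adjusted p = 0.78).

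Of the 5 Period and Cryptochrome genes, 3 were on the higher side at unadjusted p under 0.05 and 1 on the lower, and 0 passed the adjusted test. Those 4 genes also showed no overlap between the groups, 3 with all mutants above (1.91% of all genes) and 1 with all below (1.76%). Cry1 (chr10:85131700-85185064, minus strand), a repressor whose promoter E-box is printed above, had 236 and 304 reads in controls against 494 and 395 in mutants at ZT22, and 188 and 130 against 504 and 426 at ZT2. The mutants were the higher at both times, by 1.15 on the log2 scale (SE 0.22, 95% interval 0.68 to 1.62, unadjusted p = 0.000104, adjusted p = 0.279). Its paralogue Cry2 (chr2:92403646-92434043, minus strand) had 179 and 259 reads in controls against 385 and 296 in mutants at ZT22, and 179 and 138 against 314 and 317 at ZT2, a log2 difference of 0.83 (SE 0.21, adjusted p = 0.789).

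Per2 (chr1:91415982-91459324, minus strand), a core repressor, had 88 and 95 reads in controls against 114 and 99 in mutants at ZT22, and 36 and 22 against 131 and 107 at ZT2. The ZT22 controls lay just under the ZT22 mutants, and the ZT2 controls lay well below the ZT2 mutants. Over both times the log2 difference was 1.11 (SE 0.40, unadjusted p = 0.0144, adjusted p = 0.817). Per3 (chr4:151003652-151044665, minus strand), a Period paralogue dispensable for the clock, went the other way, with 115 and 112 reads in controls against 36 and 56 in mutants at ZT22, and 204 and 260 against 58 and 49 at ZT2. The highest mutant was under the lowest control, giving a log2 difference of -1.70 (SE 0.31, 95% interval -2.35 to -1.05, unadjusted p = 5.28e-05, adjusted p = 0.204). Per1 (chr11:69095217-69109960, plus strand), which also responds to glucocorticoids and to cell stimulation, had 899 and 326 reads in controls against 595 and 651 in mutants at ZT22, and 376 and 437 against 381 and 453 at ZT2. The 2 ZT22 controls spanned more than the groups differed, and the log2 difference was 0.04 (SE 0.24).

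**Figure D2:**
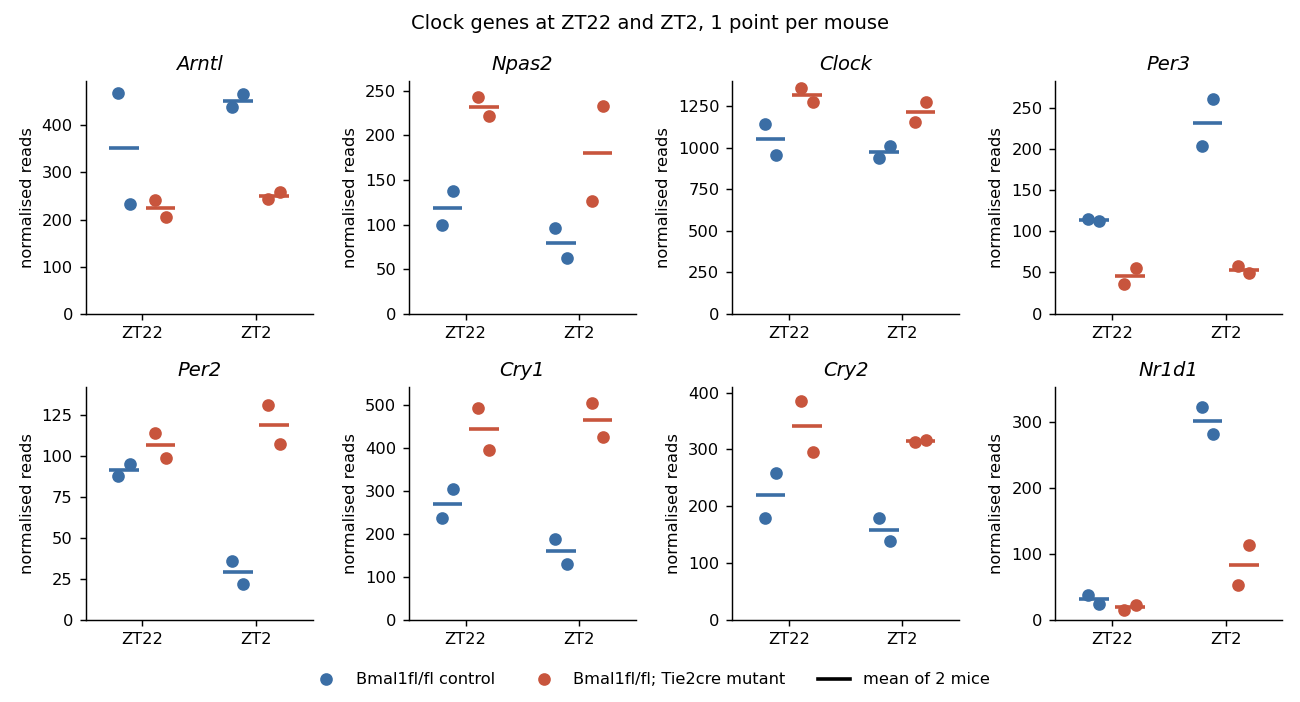
Normalised reads (y axis, from 0) of 8 clock genes in each of the 8 libraries, by time point (x axis) and genotype (blue for controls, red for mutants), 1 point per mouse with a bar at the mean of each 2 mice. Mutants lie above controls for Cry1 and Cry2 and below them for Per3 at both times, and the Arntl groups overlap at ZT22.

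The REV-ERB genes were both on the lower side. Nr1d1 (chr11:98767932-98775333, minus strand), which encodes REV-ERBα, had 38 and 24 reads in controls against 15 and 23 in mutants at ZT22, and 322 and 281 against 53 and 113 at ZT2. The ZT2 controls were above every other library, and at ZT22 all 4 libraries were low, with the second mutant (23 reads) just below the lower control (24). Its log2 difference was -1.34 over both times (SE 0.37, unadjusted p = 0.00231, adjusted p = 0.812), -0.70 at ZT22 (SE 0.51) and -1.84 at ZT2 (SE 0.46, unadjusted p = 0.00159). The difference between the time points was 1.14 (SE 0.69, unadjusted p = 0.121). Nr1d2 (chr14:18204054-18239127, minus strand), which encodes REV-ERBβ, had 100 and 158 reads in controls against 87 and 56 in mutants at ZT22, and 281 and 346 against 64 and 183 at ZT2, and its log2 difference was -1.09 (SE 0.32, unadjusted p = 0.00393, adjusted p = 0.812). The ROR genes Rora and Rorb had log2 differences of -0.06 (SE 0.16) and -0.03 (SE 0.27).

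Of the 4 genes of the D-box arm, 0 had an unadjusted p under 0.05. Dbp, whose oscillation is among the largest in most tissues, had 60 and 70 reads in controls against 26 and 52 in mutants at ZT22, and 71 and 38 against 53 and 94 at ZT2, and its log2 difference was -0.13 (SE 0.44). Tef was at -0.22 (SE 0.24) and the repressor Nfil3 at -0.16 (SE 0.38). Over all alternatives tried, Dbp was at -0.43 to 0.72, Nfil3 at -0.86 to 0.09 and Tef at -0.44 to -0.05. Hlf had 165 and 190 reads in controls against 139 and 164 in mutants at ZT22, and 305 and 198 against 154 and 162 at ZT2. All 4 Hlf mutants lay below all 4 controls, but by a log2 difference of -0.43 (SE 0.23, unadjusted p = 0.0771). Of 13 clock kinases and ubiquitin ligases, 0 had an unadjusted p under 0.05, and their median log2 difference was 0.09.

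Of 14 other genes listed as clock outputs, Fmo2 passed, as described. The list was made with earlier results of these data known, and the promoter window of Fmo2 held no E-box. Nampt, the rate-limiting enzyme of the NAD+ salvage pathway, had 909 and 962 reads in controls against 1318 and 1348 in mutants at ZT22, and 1030 and 1281 against 1689 and 1216 at ZT2 (log2 difference 0.44, SE 0.15, adjusted p = 0.812). Tsc22d3, a glucocorticoid-induced regulator, was at 0.43 (SE 0.18, adjusted p = 0.866). Ciart, whose promoter held 3 E-boxes, had 18 and 27 reads in controls against 57 and 32 in mutants at ZT22, and 13 and 46 against 39 and 98 at ZT2, a log2 difference of 1.10 with an SE of 0.53. The median over the 14 genes was 0.02, against 0.01 over all tested genes.

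At single time points no gene passed with edgeR: 0 genes at ZT22, where 451 had an unadjusted p under 0.05 (2.91%) and DESeq2 called 2, and 0 genes at ZT2, where 1007 had one (6.50%) and DESeq2 called 7. Without a filter on low counts edgeR called 23 at ZT22 and 55 at ZT2. Without replicate 1 of the ZT22 controls it called 61 at ZT22, in a fit whose only ZT22 control is the library rich in choroid plexus markers and is assumed to vary like the other groups. For the difference between the time points 0 genes passed with edgeR, 559 had an unadjusted p under 0.05 (3.61%) and DESeq2 called 0, while edgeR called 21 without the filter and 25 without that control. Of the clock genes, Per2 had the smallest p for the difference between the time points. Its log2 difference was 0.22 at ZT22 (SE 0.44) and 2.06 at ZT2 (SE 0.47, unadjusted p = 0.000659). The difference of these, ZT22 minus ZT2, was -1.84 (SE 0.63, unadjusted p = 0.0123, adjusted p = 0.999).

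No gene of the blood-brain barrier lists passed. Of 32 tested ABC transporters, the family of the efflux pumps, 0 had an unadjusted p under 0.05 in either direction, and their median log2 difference was −0.14, with 9 of 32 above 0 (50.6% of all tested genes were). The median was −0.04 and 14 of 32 were above 0 without replicate 2 of the ZT22 controls. The pump gene Abcb1a, which encodes P-glycoprotein, had 9595 and 9215 reads in controls against 12220 and 9878 in mutants at ZT22, and 9734 and 11081 against 10225 and 9748 at ZT2. Its groups overlapped, with a log2 difference of 0.10 and a 95% interval of -0.18 to 0.38. Abcg2, the breast cancer resistance protein gene, was at 0.14 (-0.14 to 0.42) and Abcc4 at -0.19 (-0.47 to 0.10).

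Of 17 tight junction genes, 1 had an unadjusted p under 0.05 (Lsr, a component of tricellular junctions, 0.27, SE 0.12) and the median was 0.00. Cldn5, the main claudin of the barrier, had 4529 and 5409 reads in controls against 6740 and 5914 in mutants at ZT22, and 7427 and 7229 against 5337 and 6279 at ZT2. Both ZT22 mutants lay above the ZT22 controls and both ZT2 mutants below the ZT2 controls, and over both times the log2 difference was 0.02 (-0.30 to 0.34). For the scaffold gene Tjp1 it was 0.15 (SE 0.14). Jam3, a junctional adhesion molecule, had 134 and 136 reads in controls against 96 and 115 in mutants at ZT22. At ZT2 it had 163 and 185 against 89 and 135. The highest mutant (135) lay 1 read above the lowest control (134). After TMM scaling all 4 mutants lay below all 4 controls, as for 1.76% of all genes. Its log2 difference was -0.48 (SE 0.26, edgeR unadjusted p = 0.0781). Of 11 adherens junction genes, 1 had an unadjusted p under 0.05 (Ctnnd1, 0.41, SE 0.19). Without replicate 2 of the ZT22 controls, neither Lsr nor Ctnnd1 was counted any more, and 1 tight junction gene was counted on the lower side.

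Of 18 tested magnesium channels and transporters, 1 was on the higher and 2 on the lower side at unadjusted p under 0.05, with a median log2 difference of 0.21. Leaving out replicate 2 of the ZT22 controls gave 3 on the higher and 2 on the lower side. Cnnm2, a transporter-like membrane protein needed for magnesium balance, had 279 and 245 reads in controls against 450 and 445 in mutants at ZT22, and 250 and 330 against 420 and 334 at ZT2. All mutants were above all controls (0.59, SE 0.18, unadjusted p = 0.00597, adjusted p = 0.812). Nipa1 and Mmgt2, both transporters, were at -1.11 (SE 0.46) and -1.33 (SE 0.54) and overlapped between groups. The channel gene Trpm7 had 770 and 954 reads in controls against 997 and 890 in mutants at ZT22, and 763 and 927 against 1064 and 893 at ZT2 (log2 difference 0.19, SE 0.15). Of 23 solute carriers, 1 was counted (Slc16a4, 0.44, SE 0.19). The glucose transporter gene Slc2a1 was at -0.11 (-0.39 to 0.16), and the organic anion transporter gene Slco1c1 at -0.05 (-0.35 to 0.24).

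Of 14 arterial genes, Gkn3 was counted on the lower side, with 114 and 35 reads in controls against 14 and 18 in mutants at ZT22, and 66 and 206 against 14 and 20 at ZT2. The controls spread widely, and every mutant was below every control (-2.60, SE 0.51, adjusted p = 0.279). Without replicate 2 of the ZT22 controls, 5 of the 14 were counted on the lower side, and Gkn3 passed the adjusted test. Of 24 genes of Wnt and VEGF signalling, Notum, a secreted Wnt inhibitor, was counted on the lower side, with 297 and 351 reads in controls against 198 and 260 in mutants at ZT22, and 478 and 435 against 265 and 211 at ZT2. Its groups did not overlap (-0.70, SE 0.19, adjusted p = 0.812). When replicate 2 of the ZT22 controls was left out, 3 of the 24 were counted on the lower side. Of 13 venous and adhesion genes, Sele was counted, with 79 reads at most, and the median was 0.14 (−0.16 without that library, with 1 counted on each side). Of 19 genes of vascular tone and haemostasis, 2 were counted on the higher side and 1 on the lower. Plat, tissue plasminogen activator, had 1225 and 1037 reads in controls against 2037 and 1382 in mutants at ZT22, and 1004 and 1064 against 1453 and 1319 at ZT2, with no overlap (0.52, SE 0.15, adjusted p = 0.812). Thrombomodulin (Thbd) was at 0.32 (SE 0.13) and the vasoconstrictor endothelin 1 (Edn1) at -0.51 (SE 0.20). Without replicate 2 of the ZT22 controls, the tone and haemostasis counts were 1 and 2.

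Of 16 heat-shock and cold-inducible genes, 5 were counted on the higher side at unadjusted p under 0.05 and 0 passed, with a median log2 difference of 0.31. At single time points 7 were counted at ZT2, where 6.50% of all genes were, and 0 at ZT22, where 2.91% were. The mitochondrial share of reads was 11.6% and 9.58% in controls against 14.3% and 12.7% in mutants at ZT2, and 7.07% and 11.9% against 6.92% and 7.16% at ZT22, and its part in these counts was not tested. Over both times, with this share as a covariate, Hspa8 was at 0.385 (SE 0.15). This value is for Hspa8 alone and does not test the counts. The chaperone gene Hspa8 had 9882 and 7756 reads in controls against 9082 and 11794 in mutants at ZT22, and 6489 and 6542 against 11306 and 7271 at ZT2 (0.39, SE 0.16), and its co-chaperone gene Dnaja1 was at 0.63 (SE 0.23). Hspa1a and Hspa1b are near-identical copies whose reads could be split between them, and they were at 1.07 (SE 0.34) and 1.22 (SE 0.44). Without replicate 2 of the ZT22 controls, 8 were counted. The first ZT2 mutant was the highest of the ZT2 libraries for each of these 4 genes.

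All 22 immediate-early genes, which respond within minutes to stimulation and to tissue dissociation, had log2 differences above 0, with a median of 0.40, and 4 had an unadjusted p under 0.05. Fos had 10726 and 3402 reads in controls against 9045 and 9600 in mutants at ZT22, and 3307 and 2576 against 5101 and 2844 at ZT2, and the ZT22 controls spanned both ZT22 mutants. Without replicate 2 of the ZT22 controls, 17 of 22 were above 0, the median was 0.19 and 1 was counted. Without a filter on low counts, Egr1 (0.58, edgeR adjusted p = 0.0363) and Fosb (0.65, edgeR adjusted p = 0.00782) passed. Of 17 glucocorticoid-responsive genes 3 were counted on the higher side (Dusp1, Tsc22d3 and Mt1), and 1 without that library.

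Of 23 interferon and MHC class I genes, 21 were above 0 (median 0.19) and 4 were counted on the higher side (among them Rsad2, Ifitm3 and Ly6a), against 2 without replicate 2 of the ZT22 controls. Rsad2, an antiviral enzyme, had 542 and 273 reads in controls against 654 and 503 in mutants at ZT22, and 366 and 430 against 974 and 511 at ZT2 (0.72, SE 0.24, adjusted p = 0.812). Of 25 genes of sterol and fatty acid synthesis, 3 were counted on the lower side (Scd2, Elovl6 and Acacb, median of the list −0.19), against 1 without it. Scd2, a stearoyl-CoA desaturase, had 3760 and 5401 reads in controls against 3254 and 3572 in mutants at ZT22, and 4526 and 3889 against 3514 and 3594 at ZT2, with no overlap (-0.32, SE 0.14, adjusted p = 0.878).

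Markers of astrocytes and oligodendrocytes were mostly on the lower side in the mutants. Of 12 astrocyte markers, 5 were counted on the lower side (Aldoc, Gfap, Aqp4, Atp1b2 and Slc4a4), with a median log2 difference of −0.42 and 11 of 12 below 0. Of 13 oligodendrocyte markers 4 were counted on the lower side (median −0.42), and of 14 neuron markers 2 on the lower and 1 on the higher side (median −0.29). Of 16 endothelial and 15 microglial markers, 0 were counted (medians 0.05 and 0.11), and without replicate 2 of the ZT22 controls 1 and 0 (medians −0.05 and 0.26). Of 5 choroid plexus markers, 0 were counted and 0 of 5 were above 0 (median −0.39), whereas without that library, the one rich in them, 5 of 5 were above 0 (median 0.72) and 2 were counted on the higher side. Of the pericyte, red blood cell and fibroblast markers, 1 of 13, 1 of 5 and 1 of 8 were counted, all on the lower side, and 0, 0 and 1 without it. Without it, 3 astrocyte, 3 oligodendrocyte and 1 neuron markers were counted on the lower side (medians −0.38, −0.27 and −0.11) and 0 neuron markers on the higher. In bulk libraries, fewer cells of a type and less RNA per cell cannot be told apart. The part of these cells in the differences above was not tested, apart from fits with their summed markers as a covariate. In the planned fit, with the markers of all other cell types summed, Npnt and Fmo2 both kept their call. A fit of all tested genes with the summed astrocyte reads as a covariate was added after the data were seen. In that fit Fmo2 kept its call (−2.94, SE 0.40, edgeR adjusted p = 0.0437). Npnt did not, at a log2 difference of 1.09 (SE 0.25, edgeR adjusted p = 0.270) against 1.26 without the covariate.

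**Figure D3:**
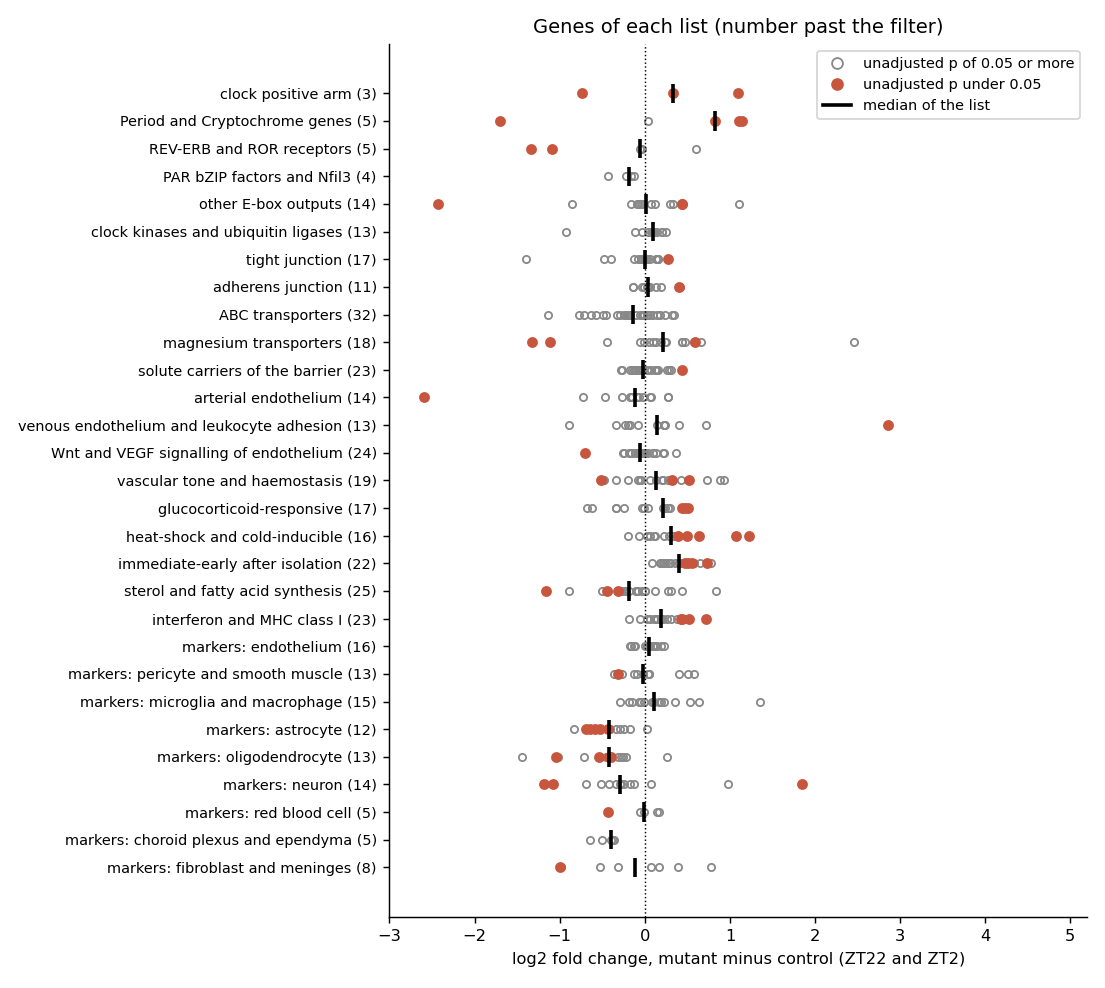
Log2 differences between mutants and controls over ZT22 and ZT2 (x axis) for the members of each gene list (rows), 1 point per gene, filled where the unadjusted p was under 0.05, with a bar at the median of the list. Members cover both sides of 0 in most lists, while all 22 immediate-early genes lie above 0 and 11 of 12 astrocyte markers below it.

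DESeq2, run as an alternative, called 13 genes, among them Npnt, Fmo2, Cry1 and Per3. Of the others, chosen after their values were seen, St8sia6, a sialyltransferase, had 339 and 381 reads in controls against 759 and 605 in mutants at ZT22, and 514 and 380 against 791 and 784 at ZT2 (edgeR 0.89, SE 0.16, adjusted p = 0.204). Aplnr, the apelin receptor of sprouting endothelium, had 56 and 74 reads in controls against 243 and 216 in mutants at ZT22, and 163 and 163 against 208 and 300 at ZT2 (1.23, SE 0.28). Both had every mutant above every control. The other higher ones by edgeR's estimate were Rftn2, a raft protein gene (0.88, SE 0.17), Cav2, a caveolin (0.75, SE 0.15), and Pafah1b1, a dynein regulator (0.59, SE 0.14). On the lower side were Gkn3 (above), Aldh2, a mitochondrial aldehyde dehydrogenase (-0.65, SE 0.14), Synpo2, an actin-binding protein gene (-0.77, SE 0.17), and Bcan, a proteoglycan of brain matrix made by glia, with 273 and 395 reads in controls against 148 and 161 in mutants at ZT22, and 468 and 384 against 238 and 241 at ZT2 (-0.95, SE 0.19).

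The genotype difference at ZT22 and ZT2 was then set against that at ZT10 and ZT14, when Arntl is lowest in controls, and at ZT6 and ZT18, in 1 fit of all 24 libraries. Both comparisons share the 8 libraries of ZT22 and ZT2. Among the libraries of ZT6 and ZT18, 2 were at odds with their labels. The library labelled control ZT18 replicate 2 had 305 reads of Npas2, against 1 to 138 in the other 11 controls, 606 of Npnt, against 65 to 304, and 47 of Fmo2, against 117 to 1159. The library labelled mutant ZT6 replicate 1 had 0 reads of Npas2, against 127 to 331 in the other 11 mutants, 68 of Npnt, against 196 to 623, and 505 of Fmo2, against 5 to 80. They were kept in the groups of their labels. Their counts of Mmp15 and Per3 also lay outside those of the other libraries of their genotype. For Per2 and Arntl this held for the library labelled mutant only (491 against 99 to 381, and 81 against 120 to 354). The library labelled control had 147 and 261 reads, within 22 to 1169 and 1 to 468. For Nr1d1 both libraries lay within the others of their genotype. Since the counts of Npas2, Npnt, Fmo2, Mmp15 and Per3 marked the libraries out, values of these genes without them are a description and no test. Sex was not balanced between genotypes outside ZT22 and ZT2: female-specific RNA was in 2 of 4 controls and 3 of 4 mutants at ZT10 and ZT14, and in 3 of 4 controls and 1 of 4 mutants at ZT6 and ZT18, by their labels. Of the 2 libraries at odds with their labels, the one labelled control held that RNA and the one labelled mutant did not, and without both it was 2 of 3 controls and 1 of 3 mutants. Its part in the differences between phases was not tested.

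Against ZT10 and ZT14, 3 of 15493 genes passed (0.0194%), Arntl, Per2 and Mmp15, while 1184 had an unadjusted p under 0.05 (7.64%). Arntl had 1 and 22 reads in the ZT10 controls and 120 and 169 in the ZT10 mutants, and 15 and 13 against 251 and 354 at ZT14. At ZT10, as at ZT2, the genotypes carried different i5 indexes, and at ZT14, as at ZT22, they shared one. The mutants were thus above the controls there, while at ZT2 they lay below them and at ZT22 the groups overlapped. The genotype difference was -0.74 (SE 0.35) at ZT22 and ZT2 and 3.98 (SE 0.44) at ZT10 and ZT14, and the difference of these was -4.72 (SE 0.56). Both phases were chosen by the level of Arntl in controls, so that this value is a description and its call no independent result.

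Per2 went the opposite way. It had 657 and 631 reads in the ZT10 controls and 211 and 121 in the ZT10 mutants, and 822 and 1169 against 381 and 327 at ZT14, so that mutants were below controls there. The genotype difference was 1.14 (SE 0.29) at ZT22 and ZT2 and -1.77 (SE 0.26) at ZT10 and ZT14. The difference of these was 2.91 (SE 0.39, edgeR adjusted p = 0.000515). Per2 is in the same feedback loop as Arntl, whose control level chose the phases, so this call is not independent of that choice. Mmp15 (chr8:95352268-95375080, plus strand), a membrane-bound matrix metalloproteinase, had 543 and 618 reads in controls against 840 and 964 in mutants at ZT22, and 1074 and 939 against 1071 and 1210 at ZT2. At ZT10 its controls had 198 and 225 reads and its mutants 1152 and 902, and at ZT14 they had 216 and 207 against 1175 and 1102. Mutants were above controls at ZT10 and ZT14, and the genotype difference went from 2.31 (SE 0.24) at ZT10 and ZT14 to 0.42 (SE 0.23) at ZT22 and ZT2, a difference of -1.89 (SE 0.33, edgeR adjusted p = 0.0249). Mmp15 passed in 13 of 25 alternatives, with an adjusted p of up to 0.134.

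**Figure D4:**
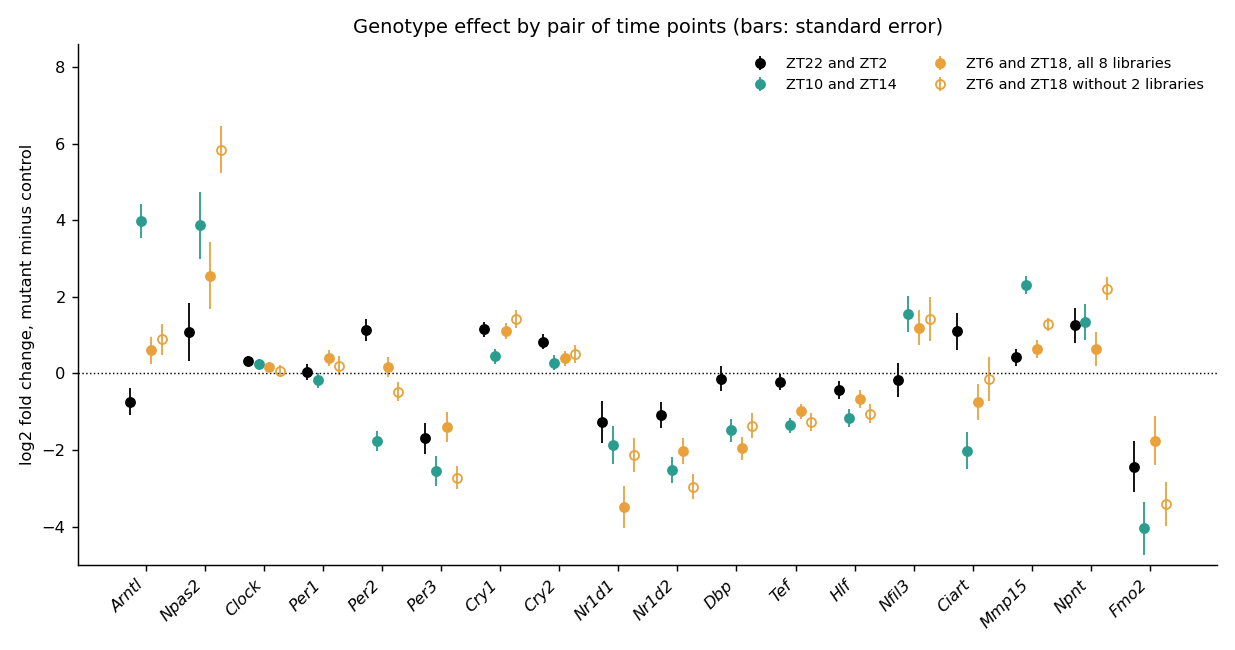
Log2 genotype difference (mutant minus control, y axis) of 18 named genes (x axis) at ZT22 and ZT2, at ZT10 and ZT14 and at ZT6 and ZT18, from the fit of all 24 libraries, with bars of 1 SE and open symbols for ZT6 and ZT18 without the 2 libraries at odds with their labels, a description for the genes that marked them out. Arntl and Mmp15 are highest at ZT10 and ZT14, Per2 is lowest there, and Per3 stays below 0 and Cry1 above 0 at all 3 pairs of time points.

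For the other clock genes, the difference between these phases did not pass. Per3 was at -1.69 (SE 0.40) at ZT22 and ZT2 and at -2.55 (SE 0.40) at ZT10 and ZT14, a difference of 0.85 (SE 0.55), and Cry1 at 1.15 (SE 0.20) and 0.44 (SE 0.20), a difference of 0.70 (SE 0.28). Npas2 was at 1.09 (SE 0.75) and 3.87 (SE 0.88), a difference of -2.78 (SE 1.13, edgeR adjusted p = 0.591). Without the 2 libraries at odds with their labels its SE was 0.53 and its adjusted p 0.0328, which is no independent call, as its own counts marked them out. All 4 genes of the D-box arm had an unadjusted p under 0.05 for the difference between the phases, against 7.64% of all genes, and 0 of them passed. Dbp was at -0.14 (SE 0.32) at ZT22 and ZT2 and at -1.49 (SE 0.30) at ZT10 and ZT14.

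Npnt and Fmo2, chosen on the 8 libraries of ZT22 and ZT2, were read in the 8 libraries of ZT10 and ZT14, which that choice did not use. Npnt had 208 and 168 reads in the ZT10 controls, 487 and 404 in the ZT10 mutants, 130 and 73 in the ZT14 controls and 396 and 196 in the ZT14 mutants. Fmo2 had 321 and 414 reads in controls against 80 and 5 in mutants at ZT10, and 552 and 1159 against 34 and 23 at ZT14. The Fmo2 groups did not overlap there. For Npnt both mutants lay above both controls at each time point, and over both times 1 mutant (196 reads) lay under the highest control (208). The log2 differences were 1.34 (SE 0.46) for Npnt and -4.05 (SE 0.69) for Fmo2. At ZT6 and ZT18 they were 0.63 (SE 0.45) and -1.76 (SE 0.64) over all libraries, and 2.21 (SE 0.30) and -3.40 (SE 0.57) without the 2 libraries at odds with their labels, which were marked out by the counts of these same genes, so that the larger values follow in part from leaving them out.

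**Figure D5:**
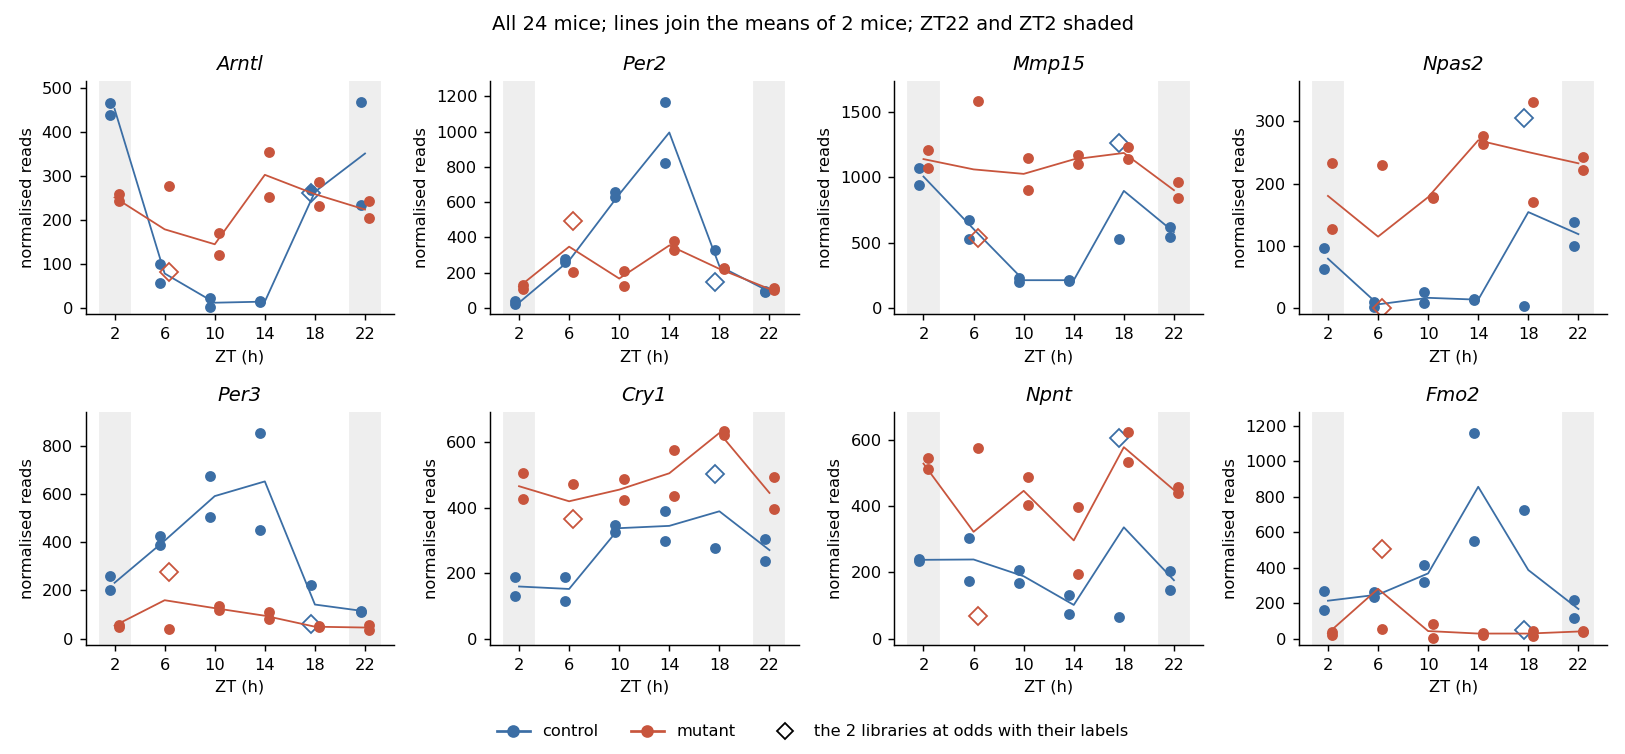
Normalised reads (y axis) of 8 named genes in all 24 libraries by time point (x axis, ZT in hours), 1 point per mouse and a line through the group means, with ZT22 and ZT2 shaded and open diamonds for the libraries labelled control ZT18 replicate 2 and mutant ZT6 replicate 1. Npnt is higher and Fmo2 lower in mutants at ZT2, ZT10, ZT14 and ZT22, and for Npas2, Npnt and Fmo2 the diamonds lie among the other genotype.

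Against ZT6 and ZT18, 0 genes passed with edgeR, 831 had an unadjusted p under 0.05 (5.36%), and DESeq2 called 2. The ZT6 and ZT18 libraries also differed in other RNA, with 5632 to 8955 reads of astrocyte markers, 1582 to 2665 of microglial markers and 2.68% to 3.90% of mitochondrial reads, against 6.92% to 14.3% mitochondrial reads at ZT22 and ZT2. Their part in the comparison with these time points was not tested.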

How the data were processed

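Counts per gene were deposited by the authors, who aligned reads with STAR v2.5.3a to GRCm38, used SAMtools v1.3.1 and normalised libraries by resampling with PORT (Ensembl v91 genes), per the study's methods and the submitters' processing notes. The whole-number counts are therefore already scaled, with 6266123 to 6577585 reads per library in these 8 and 6136404 to 6648311 over all 24. The library kit keeps the strand; whether counting used it is not given in the sources used here. Genes with at least 5 reads in at least 6 libraries of a genotype were tested (15493 of 53465 listed). The 8 libraries were fitted in edgeR v4.0.16 (R v4.3.3; TMM, quasi-likelihood, time point and genotype, 5 residual degrees of freedom); single time points used group means, and the differences between phases used 12 groups of all 24 libraries. P-values were adjusted over all tested genes by Benjamini-Hochberg. DESeq2 v1.42.0 was an alternative. The fits were tested on simulated data, and the outcome is not given here. Named were the clock genes, all called genes and, from other lists, called or abundant members; further genes with an unadjusted p under 0.05 were named after their values were seen. Members and lists were chosen with earlier results of these data known. Intervals are 95%. Gene coordinates are from GENCODE M21, and promoters from RefSeq (GRCm38.p6). Each mouse gave 1 library, so p-values rest on the spread between mice.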

Additional observations from a re-analysis of the deposited data

Results flagged for a closer look

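For Per2 and Mmp15 the genotype difference was not the same in both phases by the test of the difference itself. The difference at ZT22 and ZT2 minus that at ZT10 and ZT14 was 2.91 on the log2 scale for Per2 and −1.89 for Mmp15. Per2 passed in all 25 alternatives, with a range of 2.73 to 3.14, and Mmp15 in 13 of 25, with a range of −1.99 to −1.79. For Arntl the same difference was −4.72, with a range of −6.41 to −4.25. The phases were chosen as those in which control Arntl is highest and lowest. The values for Arntl thus rest on the levels that chose them and are a description. Per2 is part of the same feedback loop, so its values are not independent of that choice either. Within a group of 2 mice alone, it cannot be told which library lies far from its group.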

How the results depend on the processing

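Over ZT22 and ZT2, the 2 genes that passed were 13 with DESeq2, 30 without a filter on low counts, 1 with all 24 libraries in the fit (St8sia6) and 1 with astrocyte markers as a covariate (Fmo2, added after the data were seen). The fit of all 24 libraries held the 2 at odds with their labels. Leaving out single libraries gave 0 to 3, with 0 for each of 7 libraries and 3 without replicate 2 of the ZT22 controls. At ZT22 the 0 became 2 with DESeq2, 23 without the filter and 0 to 61 without single libraries (61 without replicate 1 of the ZT22 controls). At ZT2 it became 7, 55 and 0. For the difference between time points it became 21 without the filter and 0 to 25 without single libraries (25 without replicate 1 of the ZT22 controls). Against ZT10 and ZT14, 3 became 5 at an adjusted p under 0.1, 53 with DESeq2, 92 without the filter, 6 with 16 libraries in the fit, 11 without the 2 libraries at odds with their labels (picked out by their gene counts, so no independent check) and 2 to 7 without single libraries. Against ZT6 and ZT18, 0 became 2, 29 (no filter), 1 (without both libraries) and 0 to 2 (2 without replicate 2 of the ZT2 mutants). Samples with the same replicate number did not deviate together (correlations −0.0087 to 0.0149), so the numbers do not pair the samples. In these 8 libraries replicate 1 is female and replicate 2 male, so the block also takes up sex. With the replicate block the counts were 2 over both times, 0 at ZT22, 0 at ZT2, 0 between them, 4 against ZT10 and ZT14 and 0 against ZT6 and ZT18. Of 2295 alternative values for single genes, 177 had the other sign, and in 6 of these both values were larger than their SE or one was called: with the astrocyte covariate Slc1a3 (0.27), Camk2a (0.63), Ttr (0.60) and Igfbp2 (0.59), and without replicate 2 of the ZT22 controls Ttr (0.63) and Igfbp2 (0.53). Leaving out single libraries gave −0.77 to 0.63 for Ttr and −0.83 to 0.53 for Igfbp2. Of the rest, 29 lost their call and 6 gained one. The cause of these shifts was not tested. The spread between mice was 40.7%, with 2 mice per group and time. The smallest difference that could be called at a single time point is not given here.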

Other observations

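Of the guanylate-binding protein genes, which interferon induces, Gbp2, Gbp3 and Gbp4 were chosen after their values were seen. Other members, among them Gbp5, are not described. Gbp2 had 383 and 443 reads in controls against 640 and 530 in mutants at ZT22, and 428 and 441 against 1227 and 451 at ZT2. Gbp3 had 1126 and 1278 reads in controls against 1439 and 1365 in mutants at ZT22, and 879 and 1236 against 2622 and 1305 at ZT2. Gbp4 had 888 and 820 reads in controls against 1476 and 1015 in mutants at ZT22, and 798 and 1046 against 3080 and 1222 at ZT2. The first ZT2 mutant was the highest library for each of the 3 genes, at more than both ZT2 controls combined. The log2 differences over both times were 0.75 (SE 0.25), 0.57 (SE 0.22) and 0.90 (SE 0.25), with edgeR adjusted p-values of 0.812, 0.831 and 0.812, and 0 of the 3 passed. The members of this family are similar in sequence, and reads could be split between them.

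The cytokine gene Il1b had 143 and 29 reads in controls against 14 and 71 in mutants at ZT22, and 0 and 0 against 42 and 20 at ZT2. The ZT2 controls were listed at 0 reads, the other 6 libraries were not, and over both times the log2 difference was 1.33 with an SE of 1.26.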
